A study of Mus musculus with 9 samples.

Results

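Interleukin-1 (IL-1) family signalling was examined in the left ventricle of male C57BL/6 mice through 10 genes: the ligands Il1b, Il18 and Il33, the antagonist Il1rn, the receptors Il1r1, Il1rap and Il1rl1, and the inflammasome genes Nlrp3, Casp1 and Pycard. They were chosen by name, with earlier results of these data known. Every probe set whose platform annotation gave 1 of these symbols alone was taken. This gave 18 probe sets for 9 genes, out of 34945 probe sets with 1 symbol for 18193 genes. Il1rl1, which encodes the IL-33 receptor ST2, had no such probe set and was not analysed here, so the receptor side of the IL-33 pair has no value. The 9 Affymetrix arrays held left ventricular RNA taken 6 weeks after sham surgery (n = 5) or after transaortic constriction (TAC, n = 4), an operation that narrows the aorta so that the ventricle pumps against a raised pressure. All animals were described as male C57BL/6 mice with no other allele or agent named. The labels do not say that each array came from a separate animal, so the p-values cover only the spread among these samples, which may be technical.

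IL-1 family cytokines are made as precursors or kept in the cell and are released by damaged or activated cells. IL-1 beta and IL-18 are matured by caspase-1, which is activated on inflammasomes, complexes of a sensor such as NLRP3, the adaptor ASC (the product of Pycard) and the caspase. IL-33 is a nuclear protein set free on cell damage that acts through ST2, and IL-1 beta acts through IL1R1; both receptors pair with the accessory protein IL1RAP and signal through MyD88 and NF-kB. In the heart, IL-33 and ST2 are known as a system of stretched fibroblasts and muscle cells, and the IL-1 beta and inflammasome arm as part of the inflammatory response to injury.

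Each probe set has 1 log2 RMA value on each array. RMA set all arrays to the same distribution, from 2.2511 to 14.799 with a median of 6.5661, so a general rise or fall of RNA cannot be seen. Differences are TAC minus sham in log2 units, and standard errors (SE) come from limma fitted over all 18193 genes, each represented by its probe set with the highest mean. A gene was called at a Benjamini-Hochberg adjusted p below 0.05. Sham replicate 2 stood apart: among the sham arrays it was lowest in 36.8% of all genes, against 10.7% to 21.9% for each of the rest, and highest in 26.6%. Among the 9 members it was lowest in 5. Values without it are given for the member counts, Il33, Il18 and Casp1, and mostly not for the other genes. The tissue label was checked against 8 cardiomyocyte markers, whose mean value was 14.26 to 14.32 on the sham and 14.20 to 14.22 on the TAC arrays, close to the top of the scale.

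In TAC ventricles Il33, Il18 and Il1r1 rose and Pycard fell, while Il1b, Il1rn, Il1rap, Casp1 and Nlrp3 were higher on average and did not pass. Il33 was 1.93-fold higher, Il18 1.56-fold and Il1r1 1.27-fold, and Pycard was 1.26-fold lower. The test called 25.1% of all genes. The called members were 3 of 9 upward, where 12.8% of all genes were called higher, and 1 of 9 downward, where 12.3% were called lower. In 8 of the 9 genes the TAC mean was above the sham mean, and the median difference was 0.34, against -0.0038 over all genes tested. The members' median was 0.17 with the mean of each gene's probe sets and 0.23 without sham replicate 2 and TAC replicate 1. The groups did not overlap in 5 members, higher in 4 (Il33, Il1b, Il1r1 and Casp1) and lower in Pycard, while 25.2% of all genes had groups that did not overlap (13.0% higher and 12.2% lower). Of the 18 member probe sets 4 were called in the fit of all probe sets, 3 higher and 1 lower, where 17.7% of all probe sets were called (8.87% higher and 8.86% lower). Without sham replicate 2 the members gave 3 higher (13.1% of all genes) and 1 lower (13.9%). Without TAC replicate 3 they gave 1 higher (9.73% of all genes) and 1 lower (8.82%), and without both sham replicate 2 and TAC replicate 1 they gave 2 higher (10.8%) and 1 lower (11.7%).

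**Figure D1:**
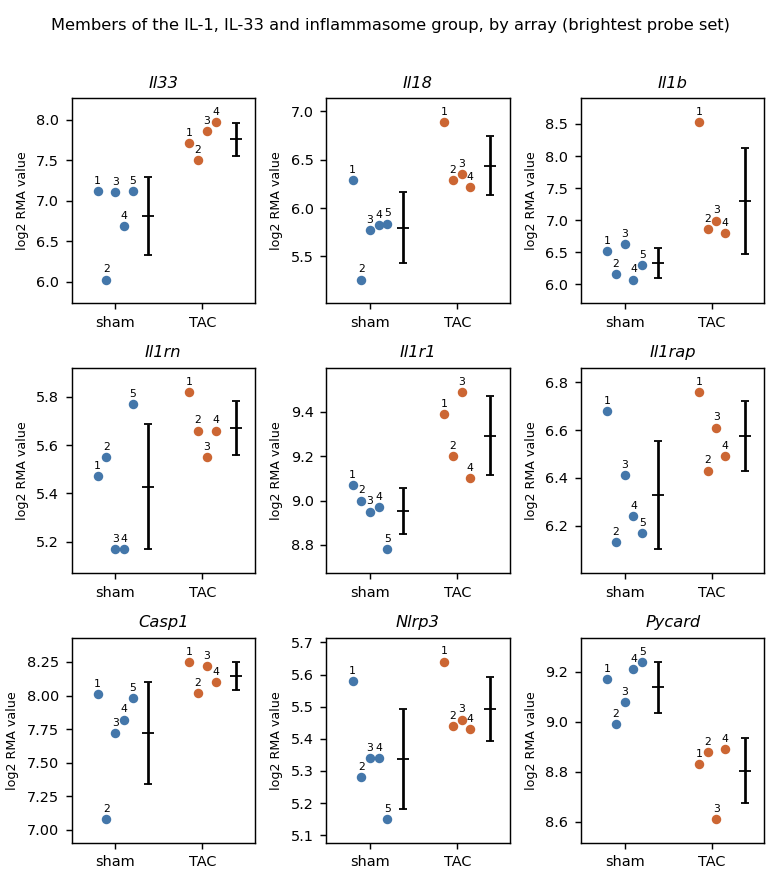
Log2 RMA value (y axis) of the 9 measured members on each array, sham in blue and TAC in orange, numbered by replicate, with the group mean and SD as black bars; each panel has its own scale. All 4 TAC arrays lie above all 5 sham arrays for Il33, Il1b, Il1r1 and Casp1 and below them for Pycard; sham replicate 2 is low in Il33 (6.03), Il18 (5.26) and Casp1 (7.08), and TAC replicate 1 is high in Il1b (8.53).

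Il33, the nuclear alarmin of the family, had the smallest p of the members. On sham replicates 1 to 5 its values were 7.12, 6.03, 7.11, 6.69 and 7.12, and on TAC replicates 1 to 4 they were 7.71, 7.50, 7.86 and 7.97. Every TAC array lay above the highest sham array, and the sham spread came mainly from replicate 2. The mean went from 6.81 ± 0.48 (SD, n = 5) to 7.76 ± 0.20 (SD, n = 4), a difference of 0.95 (SE 0.22, 95% confidence interval 0.46 to 1.43, adjusted p = 0.00976). Without sham replicate 2 the difference was 0.75 with an adjusted p of 0.0019, and the call held on leaving out each of the 9 arrays in turn, with adjusted p up to 0.0333.

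Il1b, which encodes the IL-1 beta precursor, had the largest mean difference of the members and missed the threshold. Its values were 6.51, 6.16, 6.62, 6.07 and 6.30 on the sham arrays and 8.53, 6.86, 6.99 and 6.79 on the TAC arrays. All TAC arrays lay above all sham arrays, but TAC replicate 1 stood well above the other TAC arrays, which lay close together. The means were 6.33 ± 0.23 (SD, n = 5) and 7.29 ± 0.83 (SD, n = 4), and the difference of 0.96 (SE 0.32, 95% confidence interval 0.25 to 1.67) had an adjusted p of 0.0509. Without TAC replicate 1 the difference shrank to 0.55 and passed, with an adjusted p of 0.0177. The largest adjusted p on leaving out 1 array was 0.105, without sham replicate 4. Of these 9 refits 2 passed, the other without TAC replicate 4 (adjusted p = 0.0417). Il1b also passed with the mean of probe sets (0.0470), trend and robust fitting (0.0296) and array weights (0.0372). It missed after median centring (0.0529), after cyclic loess (0.0561) and with all probe sets tested (0.0605).

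The stretches before the RefSeq transcription starts of Il33 and Il1b are shown because these were the 2 members with the largest increases in mean, and that of Pycard because it was the member that fell. Each is the 250 bases before the start, read 5′ to 3′ on the gene's strand from RefSeq sequence of build GRCm38.p6, and capitals mark the letters TATAAA on either strand. Il33 has a pair of annotated starts, at chr19:29924863-29925112 and chr19:29945540-29945789 (both on the plus strand), and the windows of Il1b and Pycard lie at chr2:129371140-129371389 and chr7:127993868-127994117 (both on the minus strand).
Il33, first start: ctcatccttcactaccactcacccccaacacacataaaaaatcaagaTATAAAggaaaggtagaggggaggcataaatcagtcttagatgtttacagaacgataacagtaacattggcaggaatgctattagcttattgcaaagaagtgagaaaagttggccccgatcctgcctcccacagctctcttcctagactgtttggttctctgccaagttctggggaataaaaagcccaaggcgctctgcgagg
Il33, second start: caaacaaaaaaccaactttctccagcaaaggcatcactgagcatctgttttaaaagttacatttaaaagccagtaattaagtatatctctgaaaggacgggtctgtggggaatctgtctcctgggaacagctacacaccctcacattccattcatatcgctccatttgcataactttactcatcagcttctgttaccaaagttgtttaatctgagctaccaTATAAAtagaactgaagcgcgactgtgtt
Il1b: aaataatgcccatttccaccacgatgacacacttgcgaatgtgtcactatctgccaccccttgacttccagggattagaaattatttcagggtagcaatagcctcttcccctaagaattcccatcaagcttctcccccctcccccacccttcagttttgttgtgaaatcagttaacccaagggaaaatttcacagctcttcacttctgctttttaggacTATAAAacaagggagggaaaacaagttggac
Pycard: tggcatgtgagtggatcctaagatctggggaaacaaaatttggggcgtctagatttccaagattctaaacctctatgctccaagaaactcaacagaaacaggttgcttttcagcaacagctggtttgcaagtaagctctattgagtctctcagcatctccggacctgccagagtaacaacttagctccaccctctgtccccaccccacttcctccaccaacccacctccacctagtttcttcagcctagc
The Il1b window and the window of the second Il33 start hold TATAAA beginning 31 and 29 bases before the start, the usual place of a TATA box. In the first Il33 window it begins 203 bases before the start, and the Pycard window holds none. Over the 16 windows of the 10 genes, of which 2 of Il1rn overlap, TATAAA was found in 4, where 12.4% of all 32851 RefSeq windows of that length hold it. The NF-kB consensus was found in 2 windows (1 each of Il1r1 and Nlrp3; 7.25% of all windows), the AP-1 letters TGANTCA in 1, of Il1rn (6.75%), and the STAT-type letters TTCNNNGAA (7.02%) and the interferon-response motif, GAAA and GAAA with any 2 bases between them (2.98%), in 0. Both strands were searched, and the array values do not tell which start was used.

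Il18, which encodes the other ligand matured by caspase-1, rose with partly overlapping groups. Its sham values were 6.29, 5.26, 5.77, 5.82 and 5.84, and its TAC values 6.89, 6.29, 6.35 and 6.22. Sham replicate 1 lay at or above TAC replicates 2 and 4, and sham replicate 2 was the lowest of all arrays. The difference was 0.64 (SE 0.20, adjusted p = 0.0359), between means of 5.80 ± 0.37 (SD, n = 5) and 6.44 ± 0.31 (SD, n = 4). In 6 of the 9 refits that left out 1 array the call was lost. Without sham replicate 2 the difference was 0.51 and the call held (adjusted p = 0.0437). The highest adjusted p, 0.101, came without TAC replicate 1, where the difference was 0.49. Without both sham replicate 2 and TAC replicate 1 the difference was 0.36 (adjusted p = 0.0766).

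Il1rn, which encodes the IL-1 receptor antagonist that blocks IL1R1, did not pass at any of its 3 probe sets. The brightest gave 5.47, 5.55, 5.17, 5.17 and 5.77 on the sham arrays and 5.82, 5.66, 5.55 and 5.66 on the TAC arrays, so that sham replicate 5 lay above 3 of the 4 TAC arrays. The difference was 0.24, with -0.04 to 0.52 as its 95% confidence interval (adjusted p = 0.199). A dimmer probe set, at 3.58 to 3.81 on sham and 3.70 to 4.06 on TAC arrays, differed by 0.25 (adjusted p over all probe sets = 0.0844), and the third by -0.0015 (0.994). Both dimmer probe sets lay below 4.942, the first quartile of the values on each array, and the table gives no detection calls. Of the other listed ligands, Il1a (0.00, adjusted p = 0.999) and Il1f10 (0.10, adjusted p = 0.424) did not pass, so that over the 6 measured ligands and antagonists 2 rose and 0 fell, with a median difference of 0.44. Downward, limma gave 0 at an unadjusted p below 0.05 and 0 under robust fitting with a mean-variance trend. Of all genes 12.8% were called higher and 12.3% lower.

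Among the receptors, Il1r1, the signalling receptor for IL-1 alpha and IL-1 beta, rose by a small step. Its sham values were 9.07, 9.0, 8.95, 8.97 and 8.78 and its TAC values 9.39, 9.20, 9.49 and 9.10. All TAC arrays lay above all sham arrays, TAC replicate 4 only just. The means were 8.95 ± 0.11 (SD, n = 5) and 9.29 ± 0.18 (SD, n = 4), with a difference of 0.34 (SE 0.09, adjusted p = 0.0227). The call ended without TAC replicate 1 (adjusted p = 0.0693), without TAC replicate 3 (0.0717) and after median centring of the arrays (difference 0.29, adjusted p = 0.0603). A second probe set of Il1r1 lay between 2.47 and 2.90 on all arrays, near the floor of the table, and differed by -0.04 (adjusted p over all probe sets = 0.839), and with the mean of both the difference was 0.15 (adjusted p = 0.201).

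Il1rap, the accessory chain shared by the IL-1 and IL-33 receptors, did not pass at any of its 5 probe sets. The brightest gave 6.68, 6.13, 6.41, 6.24 and 6.17 in sham and 6.76, 6.43, 6.61 and 6.49 in TAC, with sham replicate 1 inside the TAC range. Its difference was 0.25 (95% confidence interval -0.02 to 0.51, adjusted p = 0.165), and without sham replicate 1 it was 0.34 and passed (adjusted p = 0.0300). The other 4 probe sets lay between 3.12 and 5.18 and differed by -0.04 to 0.09, with adjusted p over all probe sets of 0.834 or more.

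The wider receptor list held 2 larger increases than Il1r1. Il1rl2, which encodes the receptor for the IL-36 cytokines, had sham values of 7.20, 6.27, 7.17, 6.78 and 7.01 and TAC values of 8.04, 7.88, 7.93 and 7.77, without overlap, and rose by 1.02 (SE 0.17, adjusted p = 0.00171). With the mean of its probe sets the increase was 0.52 (adjusted p = 0.00331). Il18bp, which encodes a secreted protein that binds and neutralises IL-18, had sham values of 8.76, 8.02, 8.43, 8.63 and 8.40 and TAC values of 9.46, 9.23, 9.45 and 9.35. It rose by 0.92 (SE 0.13, adjusted p = 0.000652), again without overlap. Of the 10 measured receptors and decoys 3 rose and 0 fell (0 lower at an unadjusted p below 0.05, and 0 with a trend and robust fitting), with a median difference of 0.12. The shares of all genes called were 12.8% higher and 12.3% lower. The decoy receptor gene Il1r2 (0.00), the IL-18 receptor genes Il18r1 (-0.07) and Il18rap (0.21) and the inhibitory receptor gene Sigirr (0.04) did not pass, with adjusted p from 0.208 to 0.999. In the RefSeq gene order Il1r2, Il1r1, Il1rl2, Il1rl1, Il18r1 and Il18rap follow one another on chromosome 1, so the 2 receptor genes of this row that rose are direct neighbours, with members on either side that did not pass or were not analysed here.

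Among the inflammasome members only the adaptor gene passed, and it was lower. Pycard had sham values of 9.17, 8.99, 9.08, 9.21 and 9.24 and TAC values of 8.83, 8.88, 8.61 and 8.89. All 4 TAC arrays lay below all sham arrays, and the spread within each group was small. The mean went from 9.14 ± 0.10 (SD, n = 5) to 8.80 ± 0.13 (SD, n = 4), a difference of -0.33 (SE 0.08, 95% confidence interval -0.52 to -0.15, adjusted p = 0.0134). The call held on leaving out each array in turn, with adjusted p up to 0.0410. The other 2 probe sets of Pycard, at 5.39 to 6.09 and 4.90 to 5.33, had differences of -0.03 and 0.16 (adjusted p over all probe sets = 0.930 and 0.277). The mean of the 3 probe sets differed by -0.07 (adjusted p = 0.590), so the decrease is that of 1 probe set, annotated to the same accession as 1 of those that did not pass.

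Casp1, which encodes the caspase that cuts the IL-1 beta and IL-18 precursors, did not pass although its groups did not overlap. Its sham values were 8.01, 7.08, 7.72, 7.82 and 7.98 and its TAC values 8.25, 8.02, 8.22 and 8.10. Sham replicate 2 lay well below the next array, and the highest sham and lowest TAC arrays nearly met. The difference was 0.42 (95% confidence interval 0.04 to 0.80, adjusted p = 0.102), and without sham replicate 2 it was 0.26 (adjusted p = 0.0508). Nlrp3, the sensor gene, was at 5.58, 5.28, 5.34, 5.34 and 5.15 in sham and 5.64, 5.44, 5.46 and 5.43 in TAC. It differed by 0.15, with -0.05 to 0.35 as the 95% confidence interval (adjusted p = 0.256), and sham replicate 1 exceeded all TAC arrays but replicate 1.

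Of the 17 measured sensors, adaptors, caspases and channel genes of inflammasomes 7 rose and 1, Pycard, fell, with a median difference of 0.33. Over all genes the test called 12.8% higher and 12.3% lower. Panx1, which encodes a membrane channel that releases ATP, had the largest difference of the list. It was at 6.70 to 7.11 in sham (median 6.83) and at 9.26, 9.21, 9.49 and 9.23 in TAC, a 5.36-fold increase of 2.42 (SE 0.10, adjusted p = 7.13e-07). Casp12, a caspase gene of the inflammatory group, rose by 1.30 (SE 0.18, adjusted p = 0.000476), and Casp4, which encodes the caspase that senses cytosolic lipopolysaccharide, rose by 0.73 (SE 0.17, adjusted p = 0.00942). Casp1, Casp4 and Casp12 follow one another on chromosome 9 in the RefSeq order, with differences of 0.42, 0.73 and 1.30. Aim2, the cytosolic DNA sensor gene, rose by 0.32 (SE 0.07, adjusted p = 0.00718), from 5.59 to 5.83 in sham to 6.03 to 6.07 in TAC. The remaining 3 increases, named after their values were seen, were in Naip2 (0.33), Naip5 (0.59) and the ATP receptor gene P2rx7 (0.60), and of 9 refits with 1 array left out, 4 lost the call of Naip2 and 5 those of Naip5 and P2rx7. Gsdmd, which encodes the pore protein cut by inflammatory caspases, differed by 0.17 (adjusted p = 0.288). Without sham replicate 2 and TAC replicate 1 together 5 rose (10.8% of all genes) and 1 fell (11.7%). The difference of P2rx7 was then 0.36 (adjusted p = 0.0975) and that of Naip5 0.39 (adjusted p = 0.0981).

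**Figure D2:**
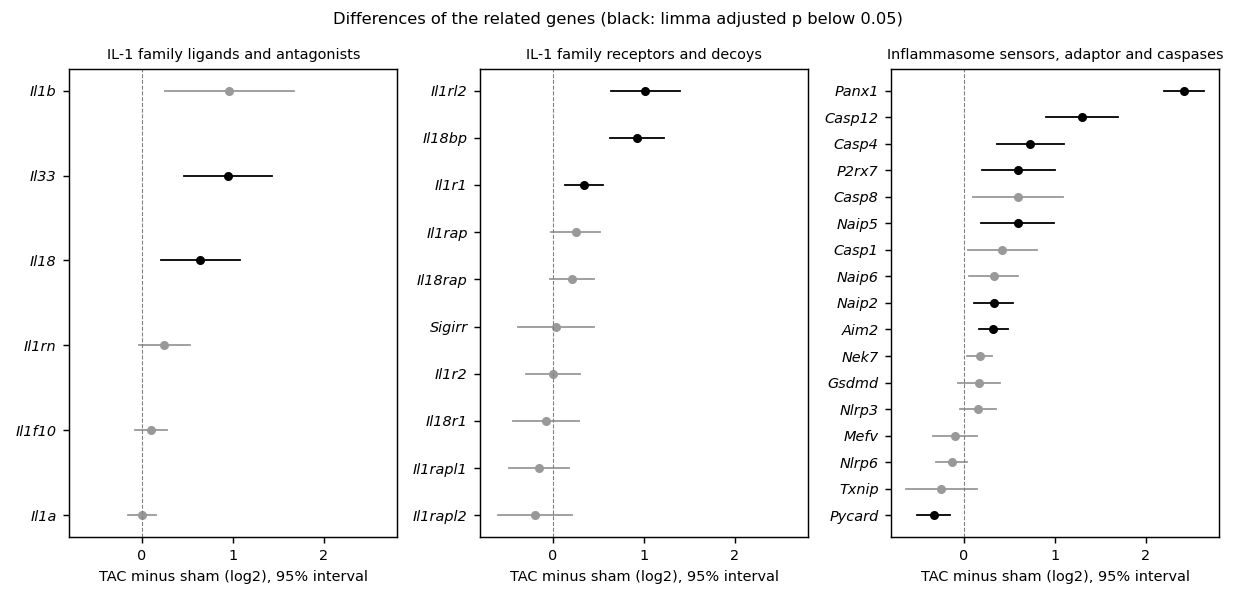
Difference TAC minus sham on the log2 scale (x axis) with its 95% confidence interval for the measured genes of 3 lists, sorted by size; black points passed the limma test (adjusted p below 0.05) and grey points did not. Il33 and Il18 lead the called ligands, Il1rl2 (1.02) and Il18bp (0.92) the receptors and decoys, and Panx1 (2.42) and Casp12 (1.30) the inflammasome list, where Pycard (-0.33) is the called gene that is lower.

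Within each array the value of one gene was set against that of its partner to see whether both changed alike. Of the 6 pairs planned, 4 could be compared, since both others need Il1rl1. Casp1 minus Pycard was -1.16, -1.91, -1.36, -1.39 and -1.26 in sham and -0.58, -0.86, -0.40 and -0.80 in TAC, so that the gap moved by 0.76 with no overlap (two-sided exact permutation p = 0.00794, the smallest that 126 splits allow; 0.0159 after Benjamini-Hochberg adjustment over the 4 pairs). At these probe sets all TAC arrays lay above all sham arrays for Casp1 and below them for Pycard. The separation of this gap was therefore fixed by the values of the single genes, and its p adds nothing to them. Nlrp3 minus Pycard moved by 0.49 with no overlap (exact permutation p = 0.00794, adjusted 0.0159). With the mean of each gene's probe sets the shifts were smaller, 0.49 for Casp1 minus Pycard and 0.22 for Nlrp3 minus Pycard, and still passed (exact permutation, adjusted p = 0.0423 and 0.0317). Both gaps at the brightest probe sets include the decrease of Pycard, and neither Casp1 nor Nlrp3 was itself called. Il1b minus Il1rn averaged 0.90 ± 0.37 (SD, n = 5) in sham and 1.62 ± 0.74 (SD, n = 4) in TAC, a shift of 0.72 that did not pass (exact permutation p = 0.0714, adjusted 0.0952) and was 0.36 without TAC replicate 1. Il1r1 minus Il1rap moved by 0.09 (exact permutation p = 0.405, adjusted 0.405).

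Downstream of the receptors, the MyD88 and NF-kB transduction genes went both ways: of 21 measured 4 rose and 2 fell, with a median difference of -0.07. This balance moved with the processing: 5 rose and 6 fell with array weights, 4 and 5 after median centring, and 4 and 4 under robust fitting with a trend. The shares of all genes called higher and lower moved too, from 12.8% and 12.3%. They were 15.9% and 16.7% with array weights, 10.9% and 16.0% after centring, and 13.7% and 13.8% under robust fitting. With the mean of probe sets 5 rose (12.6% of all genes) and 1 fell (11.5%), and the median was 0.04. The receptor-proximal genes Myd88 (0.16), Irak1 (-0.07) and Traf6 (-0.03) did not pass (adjusted p from 0.335 to 0.827). Nfkbie, an inhibitor of NF-kB that is itself an NF-kB target, was at 6.53, 5.73, 6.50, 6.25 and 6.31 in sham and at 7.85, 7.23, 7.29 and 6.93 in TAC, and rose by 1.06 (SE 0.20, adjusted p = 0.00330). Irak3, which encodes a brake on IL-1 receptor signalling, rose by 0.59 (SE 0.14, adjusted p = 0.0124), Relb by 0.49 (SE 0.15, adjusted p = 0.0394) and Map3k7, the TAK1 kinase gene, by 0.24 (SE 0.06, adjusted p = 0.0179). With the mean of its probe sets Irak3 rose by 0.34. Relb lost its call in 6 of 9 refits with 1 array left out, at most to 0.114, and Map3k7 without TAC replicate 1 (0.0569). Peli2, a ubiquitin ligase gene of this pathway, fell by 0.41 (SE 0.08, adjusted p = 0.00392), and Tab1, which encodes a TAK1 partner, fell by 0.32 (SE 0.09, adjusted p = 0.0278), a call lost in 5 of 9 such refits (at most 0.0896, without TAC replicate 3) and with the mean of its probe sets (difference -0.12, adjusted p = 0.268).

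Of 18 measured genes known to respond to IL-1 and NF-kB, 6 rose (12.8% of all genes) and 1 fell (12.3%), with a median difference of 0.32. Without sham replicate 2 and TAC replicate 1 together, 5 rose (10.8% of all genes) and 0 fell (11.7%). Il6, a cytokine gene, was at 4.52, 4.47, 4.94, 3.78 and 4.59 in sham and at 7.62, 6.44, 6.78 and 5.35 in TAC, and rose by 2.08 (SE 0.39, adjusted p = 0.00298). TAC replicate 1 was the highest array for Il6 as for Il1b. Ptgs2, which encodes cyclooxygenase-2, rose by 1.71 (SE 0.21, adjusted p = 0.000232), from 6.73 to 7.45 in sham to 8.37 to 9.31 in TAC. The adhesion molecule gene Icam1 rose by 0.85 (SE 0.16, adjusted p = 0.00277) and the stromelysin gene Mmp3 by 0.68 (SE 0.10, adjusted p = 0.000789). The other 2 increases, named after their values were seen, were in Nfkbiz (0.65, adjusted p = 0.00649) and Vcam1 (0.39, adjusted p = 0.0362), the latter lost in 7 of 9 refits with 1 array left out. The neutrophil chemokine gene Cxcl1 fell by 0.63 (SE 0.16, adjusted p = 0.0162), which missed the threshold without TAC replicate 2 (adjusted p = 0.0511). Tnf (0.16), Ccl2 (0.25) and the acute phase gene Saa3 (-0.71) did not pass, with adjusted p from 0.168 to 0.385.

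The type 2 list, of cytokine, receptor, regulator and response genes of IL-4, IL-5 and IL-13 signalling, held the largest decreases of the related lists. IL-33 is known to induce type 2 cytokines through lymphoid cells, but the list is not one of IL-33 targets alone. A link of its values to Il33 was not tested. Of 13 measured genes 2 rose (12.8% of all genes) and 3 fell (12.3%), with a median difference of -0.05. Retnla, a marker of alternatively activated macrophages, was at 8.48, 8.48, 8.91, 8.21 and 8.59 in sham and at 5.92, 6.56, 6.26 and 5.84 in TAC, and fell by 2.39 (SE 0.17, adjusted p = 9.15e-06). The eosinophil chemokine gene Ccl11 was at 7.03, 7.45, 6.69, 7.13 and 7.30 in sham and at 5.52, 5.53, 5.77 and 5.69 in TAC, and fell by 1.49 (SE 0.14, adjusted p = 4.08e-05). Ccl24, another eosinophil chemokine gene, fell by 0.56 (SE 0.15, adjusted p = 0.0179), a call lost without TAC replicate 3 (0.0574). The receptor chain genes Il4ra and Il13ra1 rose, by 0.72 (SE 0.12, adjusted p = 0.00178) and 0.56 (SE 0.09, adjusted p = 0.00124). With the mean of its probe sets Il4ra rose by 0.43. The cytokine genes Il4 (-0.10), Il5 (0.13) and Il13 (0.02) had group means between 4.13 and 4.38, below the first quartile of values, and did not pass (adjusted p from 0.240 to 0.906), nor did Arg1 (-0.11, adjusted p = 0.449).

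**Figure D3:**
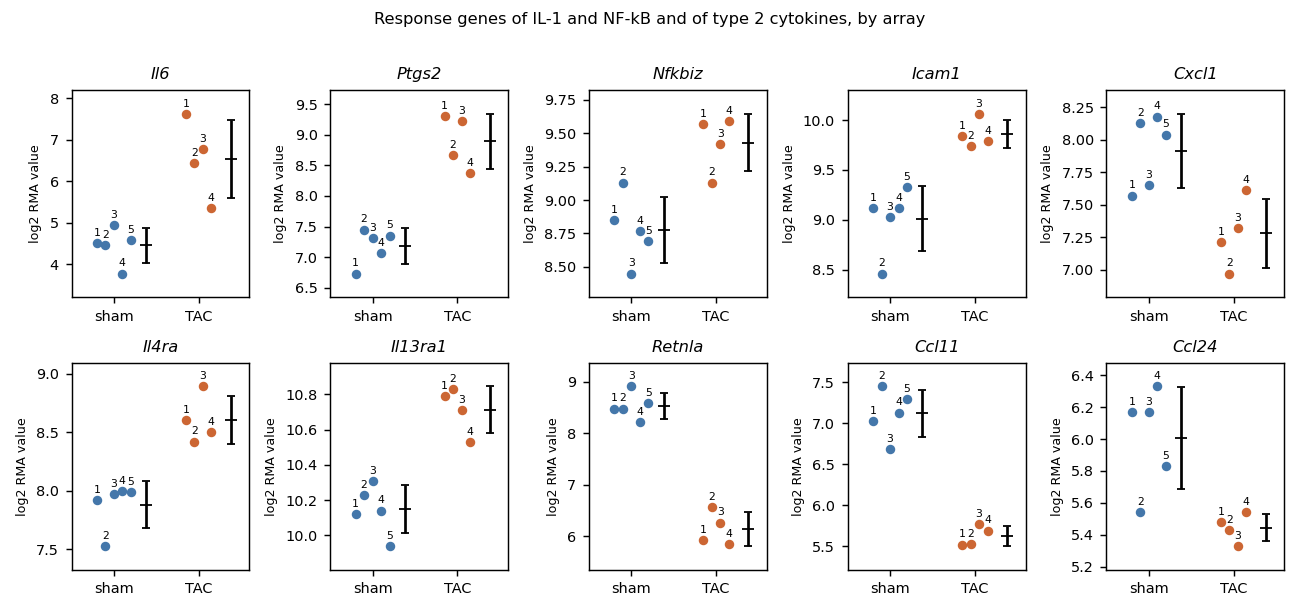
Log2 RMA value (y axis) on each array for 5 response genes of IL-1 and NF-kB (top) and 5 genes of the type 2 list (bottom), sham in blue and TAC in orange, numbered by replicate, with the group mean and SD as black bars; each panel has its own scale. Il6 spans 5.35 to 7.62 on the TAC arrays, above every sham array, while the TAC arrays of Retnla and Ccl11 lie below every sham array.

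Of the marker lists for cells that could carry these transcripts, those of macrophages and fibroblasts had most of their members called higher, and the others did not. Beside the counts of each list stand 12.8% of all genes called higher and 12.3% called lower. Of 12 macrophage markers 9 rose and 0 fell (1 lower at an unadjusted p below 0.05, and 1 with a trend and robust fitting), and their mean value was 8.79 to 9.21 on the sham arrays (lowest in replicate 2) and 9.60 to 9.70 on the TAC arrays. The lowest difference of the list was -0.40. In this list 1 marker was called lower with array weights (16.7% of all genes), after median centring (16.0%) and without sham replicate 1 (11.2%). Adgre1 (0.97, SE 0.11), C1qb (0.68, SE 0.09) and C1qa (0.70, SE 0.12) had the smallest p. Of 7 fibroblast markers 4 rose and 0 fell (0 lower at an unadjusted p below 0.05, and 0 with a trend and robust fitting), and their mean was 10.79 to 10.91 in sham and 11.15 to 11.51 in TAC, with Col1a2 (1.28), Col1a1 (0.92) and Lum (0.92) leading and the identity genes Pdgfra (0.04) and Tcf21 (0.13) not past the threshold. No cardiomyocyte, neutrophil or T cell marker rose. For these 3 lists limma gave 0 increases at an unadjusted p below 0.05, and robust fitting with a trend gave 0 as well. The smallest p of these lists were those of Mmp8 (-0.17, adjusted p = 0.159) and Cd3e (-0.17, adjusted p = 0.354), and the cardiomyocyte gene Tnni3 fell (-0.16, adjusted p = 0.0475). The cardiomyocyte probe sets used lay near the top of the scale. With the mean of each gene's probe sets 4 of the 8 fell, where 11.5% of all genes were called lower. The median difference of these markers was then -0.18 in place of -0.04. Neutrophil markers had a mean of 5.93 to 6.27 in sham and 5.76 to 6.24 in TAC, T cell and innate lymphoid markers 5.57 to 5.92 and 5.67 to 5.93, and B cell markers, of which only Ighm was called (-0.56), 6.65 to 7.13 and 6.81 to 7.26. Mast cell markers, a cell type known for high ST2, had a mean of 5.23 to 5.53 in sham and 5.18 to 5.34 in TAC, and 2 of 7, Cma1 (-0.50) and Cpa3 (-0.32), fell. Of 7 endothelial markers Vwf rose (0.44) and Kdr fell (-0.25), and of 7 smooth muscle and pericyte markers Tagln rose (0.53) and 4 fell, led by Abcc9 (-0.69) and Acta2 (-0.53). The part of these cell types in the differences of the members was not tested, and in tissue RNA a change in the number of cells of a type and a change in the RNA per cell cannot be told apart.

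Genes with the most similar profile over the 9 arrays were sought for the 3 members with the smallest p, as the root mean square (RMS) difference of values standardised for each gene. For Il33 they were Spc25 (RMS difference 0.158), Ncapg2 (0.195) and Oasl2 (0.202), against a median of 1.32 over all genes. They rose by 1.32, 0.64 and 0.90. For Pycard they were Uqcc2 (0.112), Mvb12a (0.120) and Sdr39u1 (0.132), which fell by 0.31, 0.31 and 0.44. For Il1r1 they were Gadd45g (0.248), Pdcd7 (0.255) and Cst3 (0.258), which rose by 1.30, 0.38 and 0.18. All of these points share the same 9 arrays, and the group difference itself makes profiles alike.

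**Figure D4:**
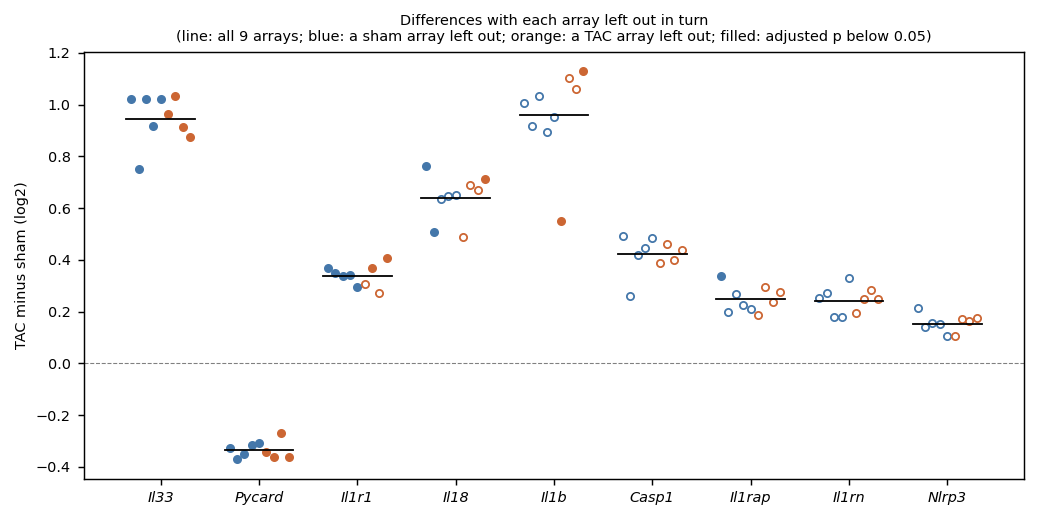
Difference TAC minus sham on the log2 scale (y axis) for each member with all 9 arrays (line) and with each array left out in turn (points; blue for a sham and orange for a TAC array left out; filled where the adjusted p was below 0.05). Il33 and Pycard stay past the threshold in all 9 refits, Il1b drops from 0.96 to 0.55 without TAC replicate 1, and Casp1 from 0.42 to 0.26 without sham replicate 2.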

How the data were processed

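Left ventricular RNA of 5 sham and 4 TAC samples was measured on Affymetrix arrays. The authors deposited log2 values, and the submitters' processing notes name RMA, with software and version not given in the sources used here. Of 45101 probe sets, 64 were controls, and the platform annotation gave 34945 exactly 1 symbol. The labels name no batch or pairing.

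Groups came from the treatment label, and replicate numbers follow sample order. limma 3.58.1 in R 4.3.3 (lmFit, eBayes, no covariate, two-sided) was fitted to 18193 genes at their brightest probe set without a filter on dim genes, and to all 45037 probe sets for single probe sets, with Benjamini-Hochberg adjustment over each. It had 7 residual and 3.27 prior degrees of freedom. Pairs of genes were compared by exact permutation over 126 splits. Fitting steps were tested on simulated data. The number of arrays limits precision.

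The members and lists were chosen with earlier results of these data known. Named genes were all members, up to 4 called genes in each direction per list by smallest p, up to 3 per marker list, and the 3 most alike genes of 3 members; other genes named were chosen after their values were seen. Sequences and gene order are RefSeq's (GRCm38.p6). Figures used Python 3.11.15 and matplotlib 3.10.9. Alternatives were the mean of probe sets, all probe sets, only genes above the median gene, mean-variance trend, array weights, median centring, cyclic loess, dropping 1 array at a time and a threshold of 0.01. Leaving out sham replicate 2 and TAC replicate 1 together was added after seeing the data.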

Additional observations from a re-analysis of the deposited data

Results flagged for a closer look

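Among 92 groups of values examined, 6 held 1 array that stood far from the others of its group, where chance alone picks out about 1 in 20. Il1b reached 8.53 on TAC replicate 1, against 6.99 for the next TAC array, and Relb reached 8.38 on the same array, against 8.08. Relb was also low on sham replicate 2, at 7.11 against 7.71, as was Il4ra, at 7.53 against 7.92. Casp12 reached 9.60 on TAC replicate 3, against 9.35. A dim probe set of Il1rap reached 4.14 on sham replicate 3, against 3.57.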

How the results depend on the processing

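None of the 156 single member differences turned its direction: 131 stayed on their side of the threshold, 16 fell out and 9 came in. Many of these could not turn. Testing all probe sets, genes above the median gene, trend and robust fitting and the 0.01 threshold reuse the main difference. So does the mean of probe sets for the 5 members with 1 probe set. Of the 81 differences with 1 array left out, 0 turned, 70 stayed, 8 fell out and 3 came in. The members called higher (3 of 9) were 1 of the 3 members among genes above the median gene (21.2% of those genes), 6 of 9 with array weights (15.9% of all genes) and 1 of 9 at an adjusted p below 0.01 (7.45%). The member called lower (1) gave 0 in limma with the mean of probe sets (0 at an unadjusted p below 0.05), where 11.5% of all genes were called lower. It gave 0 at an adjusted p below 0.01 (1 at an unadjusted p below 0.05), where 6.88% of all genes were called lower. With array weights Il1b, Casp1 and Il1rn came in. Of the 85 genes of the related lists, the 24 higher became 15 at an adjusted p below 0.01, and the 7 lower became 3 there, 3 among genes above the median gene and 11 with array weights. Over all genes the higher share went from 12.8% to 7.45% at that threshold. The lower share went from 12.3% to 6.88% there, and was 24.2% among genes above the median gene and 16.7% with array weights. Centring each array on its median moved the median of all genes to -0.05 and the share of higher among called genes to 40.5%. Leaving out 1 array gave 1 to 4 members higher and 1 lower, 17 to 25 higher and 5 to 8 lower related genes, and 1 to 4 higher and 0 to 1 lower member probe sets. In these refits 9.73% to 13.1% of all genes were called higher and 8.82% to 13.9% lower. The shares of all probe sets in these refits are not given here. Il1b minus Il1rn was 0.80 with the mean of probe sets and passed (adjusted exact permutation p = 0.0423). Leaving out 1 array gave 0.36 to 0.88 for it, 0.63 to 0.82 for Casp1 minus Pycard, 0.41 to 0.54 for Nlrp3 minus Pycard and 0.03 to 0.15 for Il1r1 minus Il1rap. With 4 against 4 arrays the exact permutation p cannot go below 0.0286, and without sham replicate 1, 2, 4 or 5 both Pycard pairs had an adjusted p of 0.0571. Without sham replicate 3, Il1b minus Il1rn passed (0.0381). No paired analysis was possible because the labels name no pairing. The cause of these changes was not tested. The 2 pairs with Il1rl1 were not run. The 9 arrays and the missing detection calls limit what dim probe sets can show.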
